A study of Mus musculus with 4 samples.

Results

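The genes described here encode proteins of cardiac, skeletal and smooth muscle that are nevertheless detected in mouse embryonic stem cells. They were named by symbol (Casq2, Myl4, Mypn, Myof, Acta2, Tagln, Cald1, Tpm1, Tpm2 and Cnn1), and all 10 were found among the 13815 genes of the mRNA table. By their RefSeq annotation Tagln, Tpm1 and Cnn1 lie on chromosome 9, Myof and Acta2 on chromosome 19, and Casq2, Tpm2, Cald1, Mypn and Myl4 on chromosomes 3, 4, 6, 10 and 11. Poly(A)+ RNA was sequenced from WT cells of the V6.5 line, from dgcr8-/- cells and from dicer-/- cells, and small RNA from WT cells. All were labelled with the strain V6.5 and grown in serum with ESGRO, a leukaemia inhibitory factor preparation. The alleles, the passage and whether a line is 1 clone are not stated in the labels. DGCR8 works with Drosha to release miRNA hairpins in the nucleus, and Dicer cuts those hairpins into mature miRNAs. Each of the 4 groups had 1 library, so no difference has a replicate check, no test was run, and cell line or culture cannot be told apart from genotype. The genes were chosen by their measured counts in these 3 mRNA libraries, as muscle genes expressed there, so their ratios are a description.

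Muscle contracts when myosin heads pull on actin filaments, and calcium released from an internal store starts the cycle. In striated muscle the filaments are built into sarcomeres, while smooth muscle uses a looser lattice with its own actin, transgelin, calponin and caldesmon. Many of the smooth muscle genes have close relatives, or are themselves active, in the actin cytoskeleton of cells that are not muscle, and serum response factor (SRF) with its MRTF coactivators is the classical regulator of this group.

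The libraries held 9931625 counts (WT), 11123498 (Dgcr8 knockout) and 12309100 (Dicer knockout), and levels are given as CPM, the counts of a gene scaled to the same total in each library, where 1 CPM stood for 9.93, 11.12 and 12.31 counts. Dgcr8 was at 52.7, 20.9 and 84.7 CPM in WT, the Dgcr8 knockout and the Dicer knockout, and Dicer1 at 79.9, 128 and 20.1 CPM. Each targeted gene was thus lowest in its own knockout and not at 0, and which exons are deleted is not stated in the labels. All 10 pluripotent stem cell markers reached 1 CPM in each library, with a summed level of 11603, 7721 and 8288 CPM. Of these, Tdgf1 was at 1486, 471 and 421 CPM, Lin28a at 151, 30.03 and 44.8 CPM, and Zfp42 at 488, 386 and 95.1 CPM, while Dppa5a was at 5564, 2715 and 4222 CPM. Pou5f1 was at 2207, 1898 and 1635 CPM. Others were not lower in both knockouts: Sox2 was at 382, 523 and 532 CPM and Nanog at 405, 577 and 417 CPM. Sall4 was at 141, 203 and 183 CPM, Esrrb at 487, 607 and 458 CPM and Utf1 at 292, 311 and 280 CPM. Their part in the results was not tested. Of 8 cardiomyocyte markers, 5 had a row, and their summed level was 10.5, 9.98 and 12.1 CPM in that order of libraries. Within this sum, Tnni3 had 49, 17 and 26 counts, Ryr2 had 24, 60 and 72, and Nkx2-5 had 2, 15 and 19. Myh6 had 17, 12 and 17 counts and Myh7 had 12, 7 and 15. Tnnt2, Actc1 and Pln of this list were not analysed here. Of 8 skeletal muscle markers, 3 had a row, with a summed level of 45.4, 197 and 317 CPM, nearly all of it from Mylpf and Ttn. The other, Acta1, had 2, 23 and 11 counts. Myod1, Myog, Myf5, Ckm and Tnnt3 were not analysed here. The 5 smooth muscle markers with a row of 8, 3 of them among the 10 genes, summed to 35.7, 62.7 and 46.9 CPM. Lmod1 of these had 18, 15 and 12 counts. Myh11, Actg2 and Myocd were not analysed here. In cultured cells measured in bulk, fewer cells of a type and less RNA per cell cannot be told apart.

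Casq2 was absent from the counts of WT cells and present in both knockouts, and Myl4 was nearly absent from both knockouts and present in WT. The smooth muscle genes Tagln, Cald1 and Tpm1 were higher in each knockout than in WT, and Tpm2 and Cnn1 were lower. Mypn and Myof stood above WT in Dgcr8 knockout cells and below it in Dicer knockout cells. A gene was called at 2-fold or more on the scale log2(CPM + 1), among genes that reached 1 CPM in either library compared. In the Dgcr8 knockout against WT, 6 of the 10 were called higher and 2 lower, beside 14.3% and 8.02% (22.3% in either direction) of 13223 genes tested. In the Dicer knockout against WT, 5 were higher and 4 lower, beside 16.0% and 9.70% (25.7% in either direction) of 13403 genes. Both comparisons use the same WT library. Between the knockouts, 2 were higher in the Dgcr8 knockout and 0 lower, beside 4.15% and 5.05% (9.20% in either direction) of 12986 genes. The median log2 ratio of the 10 was 1.27, 0.42 and -0.26 in these 3 comparisons, and that of all genes tested was 0.11, 0.10 and 0.00. All 10 passed the floor in each comparison, but 5 lay below 1 CPM in some library. In the 3 comparisons 4, 3 and 3 of them passed through 1 of the 2 libraries alone, so nothing is read from these counts. Calls higher made up 64.1% of all calls in the Dgcr8 knockout against WT, but 53.6% with median-ratio scaling and 55.4% with TMM scaling.

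**Figure D1:**
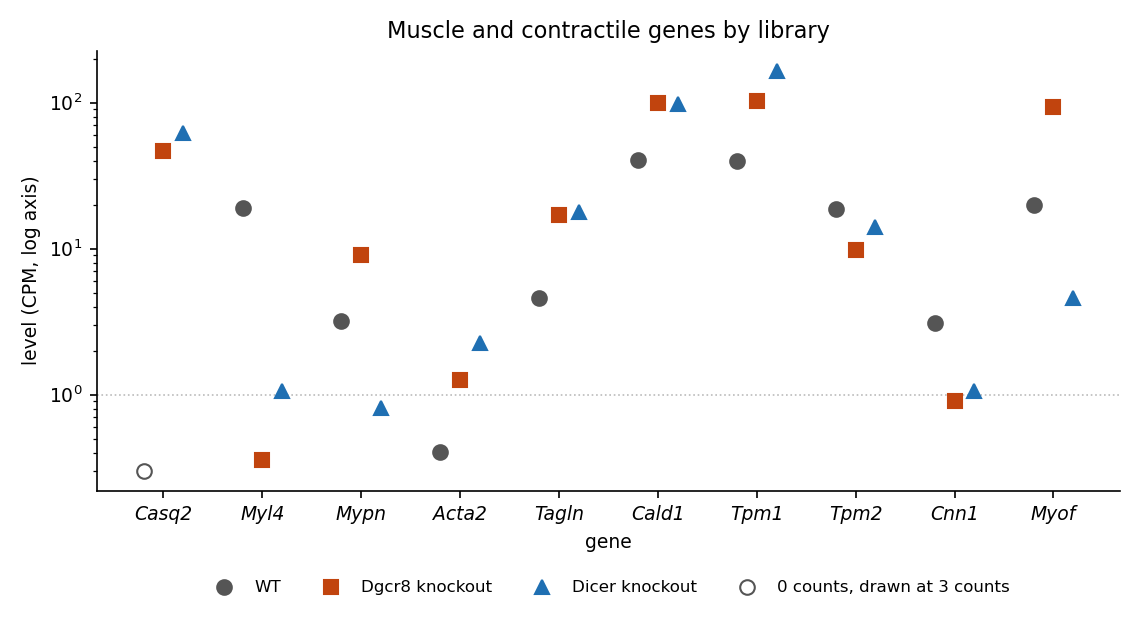
Level of each gene in CPM (log axis) in the WT (circles), Dgcr8 knockout (squares) and Dicer knockout (triangles) library, 1 library each, with the dotted line at 1 CPM. Casq2 had 0 counts in WT, drawn as an open circle at 3 counts; Myl4 was at 19.0 CPM in WT and at 0.360 and 1.06 CPM in the knockouts, and Myof was highest in the Dgcr8 knockout at 93.9 CPM.

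Casq2 encodes cardiac calsequestrin, which buffers calcium inside the sarcoplasmic reticulum. Its cell in the table was empty in WT, read as 0 counts, and it had 521 counts (46.8 CPM) in the Dgcr8 knockout and 768 counts (62.4 CPM) in the Dicer knockout. Computed against a nominal 3 counts for WT, these levels were 155-fold and 207-fold higher, which is not a lower limit. The lower limits of the 95% counting intervals were smaller, at 126-fold and 168-fold, and at 62.5-fold and 83.6-fold with counts halved. The knockouts were much closer to each other, with a ratio of the Dgcr8 to the Dicer knockout of 0.751 (95% counting interval 0.670 to 0.840). Casq1, the calsequestrin of fast skeletal muscle, was present in every library, at 7.45 CPM in WT, 3.51 CPM in the Dgcr8 knockout and 10.6 CPM in the Dicer knockout. Casq2 thus made up 0% of the calsequestrin counts in WT (0 of 74 counts, 95% Clopper-Pearson interval up to 4.86%), 93.0% in the Dgcr8 knockout (90.6% to 95.0012%) and 85.5% in the Dicer knockout (83.05% to 87.8%).

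Of 20 listed calcium store genes, 15 had a row. In the Dgcr8 knockout against WT, 2 of 14 tested were higher (Casq2 itself and Asph) and 0 lower. In the Dicer knockout 3 of 15 were higher (Casq2, Ryr2 and Itpr2) and 2 lower (Ryr1 and Atp2a3). Of all genes tested, 14.3% were higher and 8.02% lower in the first comparison and 16.0% and 9.70% in the second. Ryr2, the release channel of the heart, had 24, 60 and 72 counts in WT, the Dgcr8 knockout and the Dicer knockout. Ryr1, the channel of skeletal muscle, had 107, 70 and 52 counts. The calcium pump gene Atp2a3 was at 61.7 CPM in WT, 39.5 CPM in the Dgcr8 knockout and 5.77 CPM in the Dicer knockout, where it was 10.7-fold lower than in WT (8.36 to 13.9). Calr, the calcium-binding chaperone of the endoplasmic reticulum in most cells, was at 947, 1648 and 1149 CPM. Among the genes whose levels over the 3 libraries lay nearest to Casq2 were Lefty1 and Zic2, at Euclidean distances of 0.86 and 1.05 on centred log2(CPM + 1) values. Lefty1, an inhibitor of Nodal signalling, had 465 counts in WT, 14589 without Dgcr8 and 16368 without Dicer.

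Myl4 encodes the essential myosin light chain of the atrium and of embryonic muscle. It had 189 counts (19.0 CPM) in WT, 4 counts (0.360 CPM) in the Dgcr8 knockout and 13 counts (1.06 CPM) in the Dicer knockout. WT stood far above both knockouts, 52.9-fold above the Dgcr8 knockout (20.3 to 196) and 18.0-fold above the Dicer knockout (10.3 to 34.5). Between the knockouts the ratio was 0.340, and its interval of 0.0809 to 1.102 spans 1 at these counts. Myl6, the essential light chain of smooth muscle and other cells, was at 194, 233 and 269 CPM. The share of Myl4 among the counts of Myl4, Myl6 and Myl6b was 8.54% in WT (7.41% to 9.78%), 0.151% in the Dgcr8 knockout (0.0410% to 0.385%) and 0.382% in the Dicer knockout (0.203% to 0.652%). The genes nearest to Myl4 over the 3 libraries were Rgcc, Gpx3 and Hnf4a, at distances of 0.30, 0.37 and 0.43.

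Mypn encodes myopalladin, which ties nebulin and alpha-actinin at the sarcomere's Z-line. It had 32 counts (3.22 CPM) in WT, 101 (9.08 CPM) in the Dgcr8 knockout and 10 (0.812 CPM) in the Dicer knockout. It was thus 2.82-fold above WT in the Dgcr8 knockout (1.88 to 4.34) and 3.97-fold below WT in the Dicer knockout (1.90 to 9.04). The ratio between the knockouts, which does not use the WT library, was 11.2 (5.83 to 24.0). With a pseudocount of 5 CPM neither comparison of Mypn with WT passed the call, at 0.78 and -0.50. Palld, its broadly expressed relative palladin, was at 11.3, 29.6 and 9.42 CPM, a ratio to WT of 2.62 in the Dgcr8 knockout (2.11 to 3.28) and of 0.836 in the Dicer knockout (0.639 to 1.09). Mypn made up 22.2% of the counts of this pair in WT (15.7% to 29.9%), 23.5% in the Dgcr8 knockout (19.6% to 27.8%) and 7.94% in the Dicer knockout (3.87% to 14.1%). The intervals of WT and the Dgcr8 knockout overlap, and that of the Dicer knockout lies below both. Share intervals were computed on full counts only, so this separation was not checked with counts halved. Notch4, Rpl10l and Ak7 were nearest to Mypn, at distances of 0.04, 0.15 and 0.21.

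The sarcomere list held genes on both sides. Of 37 listed genes, Myl4 and Mypn among them, 20 had a row and 19 were tested against WT. In the Dgcr8 knockout 4 were higher and 5 lower, and in the Dicer knockout 5 were higher and 6 lower, with medians of -0.34 and -0.19. Over all genes tested, 14.3% were higher and 8.02% lower in the first and 16.0% and 9.70% in the second, with medians of 0.11 and 0.10. Ttn, the giant spring protein of the sarcomere, had 32, 272 and 379 counts in WT, the Dgcr8 knockout and the Dicer knockout, 7.59-fold (5.25 to 11.3) and 9.56-fold (6.65 to 14.2) above WT. Mylpf, the regulatory light chain of fast skeletal muscle, was at 42.0, 170 and 285 CPM. On the other side, Myh3, the embryonic myosin heavy chain, had 79, 3 and 18 counts, and Tnnt1, the slow skeletal troponin T, had 110, 20 and 21. Tnni3, the cardiac troponin I, had 49, 17 and 26 counts and passed the 2-fold call in the Dgcr8 knockout, at a log2 ratio of -1.23, while its log2 ratio in the Dicer knockout was -0.93. Genes of 1 muscle type did not stand on 1 side, since the skeletal genes Mylpf and Tnnt1 were on opposite sides of WT.

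**Figure D2:**
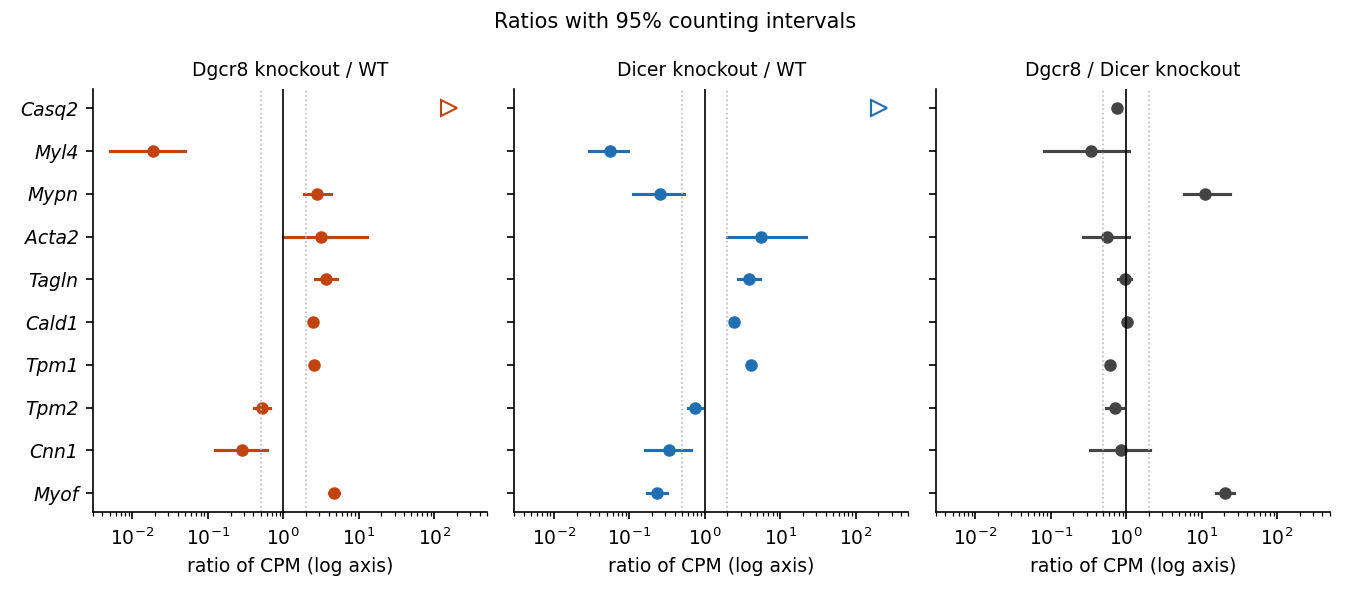
Ratio of CPM (log axis) for each gene in the Dgcr8 knockout over WT, the Dicer knockout over WT and the Dgcr8 over the Dicer knockout; bars are 95% counting intervals, dotted lines mark 2-fold, and open triangles mark the ratios of Casq2 with WT set at 3 counts, which lie above the lower interval limits of 126 and 168. Between the knockouts, Mypn (11.2) and Myof (20.3) lie above 2-fold, and the other 8 lie between 0.340 and 1.01.

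Myof encodes myoferlin, a membrane protein of the ferlin family that acts in myoblast fusion and membrane repair and is also made outside muscle. It had 198 counts (19.9 CPM) in WT, 1045 (93.9 CPM) in the Dgcr8 knockout and 57 (4.63 CPM) in the Dicer knockout. The 3 libraries were all apart, with a 4.71-fold higher level than WT in the Dgcr8 knockout (4.04 to 5.51) and a 4.31-fold lower level in the Dicer knockout (3.19 to 5.89). Dysf, the ferlin of mature muscle membrane repair, was at 7.65, 5.03 and 4.31 CPM. The share of Myof in the counts of the pair was 72.3% in WT (66.6% to 77.5%), 94.9% in the Dgcr8 knockout (93.4% to 96.1%) and 51.8% in the Dicer knockout (42.1% to 61.4%). Of the 11 listed ferlins and partners, 5 had a row. Ahnak, a large scaffold protein that binds dysferlin, was at 55.3, 107 and 153 CPM and passed 2-fold in the Dicer knockout. The genes nearest to Myof were Mirg, Grin1 and Meg3, at distances of 0.24, 0.80 and 0.89. Meg3 and Mirg are noncoding transcripts of the imprinted Dlk1-Dio3 locus, and Meg3 had 101, 242 and 6 counts.

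Acta2 encodes the alpha-actin of smooth muscle. It was scarce throughout, with 4 counts in WT (0.403 CPM), 14 in Dgcr8 knockout cells (1.26 CPM) and 28 in Dicer knockout cells (2.27 CPM). The ratio to WT was 3.12 in the Dgcr8 knockout, with an interval of 0.981 to 13.04 that spans 1, and 5.65 in the Dicer knockout (1.98 to 22.2). On the log2(CPM + 1) scale these were 0.69 and 1.22, so that with a pseudocount of 1 CPM the Dicer knockout alone passed the call. This rests on the pseudocount: with 0.1 CPM the Dgcr8 knockout passed too (1.43), and with 5 CPM the Dicer knockout did not (0.43). The cytoplasmic actin genes were far more abundant in counts, Actb at 1029, 2402 and 3352 CPM and Actg1 at 2024, 3463 and 4077 CPM, both higher in the knockouts. Acta2 was 0.0132% of the counts of the 4 actin genes with a row in WT (0.00359% to 0.0338%), 0.0214% in the Dgcr8 knockout (0.0117% to 0.0360%) and 0.0306% in the Dicer knockout (0.0203% to 0.0442%), and these intervals overlap. Actin genes are similar in sequence, the labels do not say how reads matching several genes were counted, and the part of Actb and Actg1 reads in the Acta2 counts was not tested.

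Tagln encodes transgelin, an actin-bundling protein abundant in smooth muscle. It had 46 counts (4.63 CPM) in WT, 190 (17.1 CPM) in the Dgcr8 knockout and 219 (17.8 CPM) in the Dicer knockout. The knockouts were both higher, 3.69-fold (2.66 to 5.21) and 3.84-fold (2.78 to 5.40), and differed from each other by a ratio of 0.960 whose interval of 0.786 to 1.17 spans 1. Its relatives differed less: Tagln2, the transgelin of most other cells, was at 257, 305 and 223 CPM and Tagln3, the neuronal form, at 6.95, 11.4 and 15.4 CPM. Tagln accordingly took 1.72% of the transgelin counts in WT (1.26% to 2.29%), 5.12% in the Dgcr8 knockout (4.44% to 5.88%) and 6.95% in the Dicer knockout (6.09% to 7.89%).

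Cald1 encodes caldesmon, which binds actin and tropomyosin and restrains myosin, with a long form in smooth muscle and a shorter form elsewhere that 1 row cannot separate. It had 401 counts (40.4 CPM) in WT, 1106 (99.4 CPM) in the Dgcr8 knockout and 1211 (98.4 CPM) in the Dicer knockout. This was 2.46-fold (2.19 to 2.77) and 2.44-fold (2.17 to 2.73) above WT. The level was nearly the same in the knockouts, with a ratio of 1.01 (0.931 to 1.097).

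Tpm1 and Tpm2 encode tropomyosins, coiled-coil proteins that lie along the actin filament and control its access to myosin. Tpm1 had 399 counts (40.2 CPM) in WT, 1136 (102 CPM) in Dgcr8 knockout cells and 2037 (165 CPM) in Dicer knockout cells. It was 2.54-fold (2.27 to 2.86) and 4.12-fold (3.70 to 4.60) above WT, and the Dgcr8 knockout was below the Dicer knockout by a ratio of 0.617 (0.573 to 0.664). Tpm2 had 185 counts (18.6 CPM) in WT, 109 (9.80 CPM) in the Dgcr8 knockout and 172 (14.0 CPM) in the Dicer knockout. WT was highest for Tpm2, 1.90-fold (1.49 to 2.43) and 1.33-fold (1.08 to 1.65) above the knockouts, and neither comparison reached 2-fold. With counts halved the interval of the Dicer knockout, 0.556 to 1.02 as a ratio to WT, spans 1. The broadly expressed Tpm3 and Tpm4 were at 419, 553 and 481 CPM and at 77.5, 109 and 137 CPM. All 4 tropomyosin genes together were at 556, 774 and 798 CPM. The share of Tpm1 in the tropomyosin counts was 7.23% in WT (6.56% to 7.95%), 13.2% in the Dgcr8 knockout (12.5% to 13.9%) and 20.7% in the Dicer knockout (19.9% to 21.5%). The share of Tpm2 was 3.35% (2.89% to 3.86%), 1.27% (1.04% to 1.53%) and 1.75% (1.50045% to 2.03%). Tpm1 thus had a larger share of the family in each knockout than in WT and Tpm2 a smaller one, and within-family shares do not depend on how the libraries are scaled.

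Cnn1 encodes calponin, an actin-binding protein of differentiated smooth muscle. It had 31 counts (3.12 CPM) in WT, 10 (0.899 CPM) in the Dgcr8 knockout and 13 (1.06 CPM) in the Dicer knockout. WT was 3.47-fold (1.66 to 7.94) and 2.96-fold (1.502 to 6.15) above the knockouts, which did not differ beyond counting error (ratio 0.851, 0.334 to 2.10). With a pseudocount of 5 CPM neither comparison of Cnn1 with WT passed the call, at -0.46 and -0.42. Cnn2, a calponin of many cell types, was at 12.1, 26.0 and 37.6 CPM, on the other side of WT. Cnn3 was at 368, 386 and 441 CPM. Cnn1 made up 0.814% of the calponin counts in WT (0.554% to 1.15%), 0.218% in the Dgcr8 knockout (0.105% to 0.400%) and 0.220% in the Dicer knockout (0.117% to 0.376%). Shares of counts were not corrected for transcript length, so they are compared between libraries and not between genes.

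**Figure D3:**
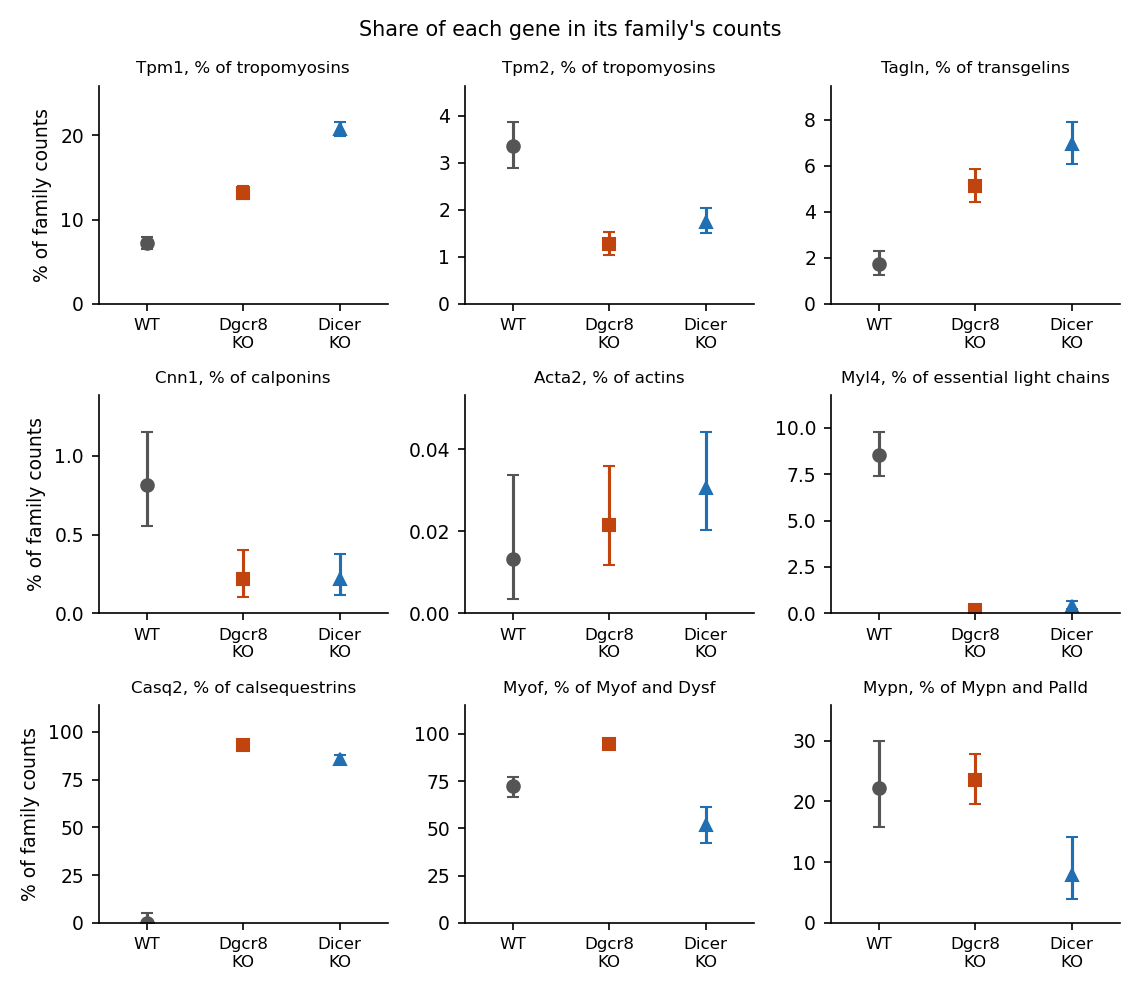
Share of each gene in the counts of its family (%, axes start at 0) in the WT, Dgcr8 knockout and Dicer knockout library; bars are exact 95% Clopper-Pearson intervals, which cover counting error only. Tpm1 was at 7.23%, 13.2% and 20.7% of tropomyosin counts and Tagln at 1.72%, 5.12% and 6.95% of transgelin counts, while Myl4 and Cnn1 had their largest share in WT.

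Promoter sequences are shown for Acta2, Tpm1 and Cald1, 3 of the smooth muscle genes with more counts in the knockouts than in WT. They come from RefSeq (build GRCm38.p6) and run from 250 bases before to 50 bases after the annotated gene start. Capitals mark matches to the SRF-binding CArG box with 1 of its middle bases C or G, and to GGAATG, the core letters bound by TEAD factors, on either strand.
Acta2 (chr19:34255324-34255623, minus strand): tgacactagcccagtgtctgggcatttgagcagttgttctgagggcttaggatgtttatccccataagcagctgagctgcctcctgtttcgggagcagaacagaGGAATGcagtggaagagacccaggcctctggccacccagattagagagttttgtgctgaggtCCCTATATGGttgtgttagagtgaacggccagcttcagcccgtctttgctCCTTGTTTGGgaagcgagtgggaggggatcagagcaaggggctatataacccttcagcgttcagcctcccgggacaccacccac
Tpm1 (chr9:67049164-67049463, minus strand): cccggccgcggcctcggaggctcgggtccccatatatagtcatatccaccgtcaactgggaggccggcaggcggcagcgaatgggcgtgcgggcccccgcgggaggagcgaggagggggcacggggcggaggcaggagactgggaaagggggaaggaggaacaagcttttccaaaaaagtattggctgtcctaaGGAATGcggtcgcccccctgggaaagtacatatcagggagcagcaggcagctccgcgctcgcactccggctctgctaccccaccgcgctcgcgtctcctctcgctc
Cald1, the upstream of its annotated starts (chr6:34598254-34598553, plus strand): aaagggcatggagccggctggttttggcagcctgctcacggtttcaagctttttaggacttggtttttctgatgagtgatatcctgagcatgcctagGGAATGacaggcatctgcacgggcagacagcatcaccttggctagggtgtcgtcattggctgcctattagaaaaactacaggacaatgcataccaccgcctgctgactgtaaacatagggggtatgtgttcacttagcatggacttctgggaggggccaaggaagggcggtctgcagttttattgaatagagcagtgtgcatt
The Acta2 window holds 2 CArG-like matches, CCCTATATGG at 84 to 75 bases and CCTTGTTTGG at 34 to 25 bases before the start, and a GGAATG match at 146 to 141 bases before it. Tpm1 holds GGAATG at 56 to 51 bases and Cald1 at 153 to 148 bases before the start.

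Of the 10 genes, 9 had a window in the RefSeq table (10 windows, since Cald1 has 2 starts), and Tagln had no entry. The strict CArG box, with CC, then 6 A or T, then GG, matched in 0 of the 9 genes and in 1.63% of all 32851 windows. The form with 1 middle base C or G matched in Acta2 alone and in 8.50% of all windows. GGAATG matched in 4 genes, the 3 shown and Mypn, and in 14.7% of all windows. For Cald1 the window shown holds this match and the window of its other start does not. The E-box CANNTG matched in 7 genes and in 72.3% of all windows, TATAAA in 2 genes (Mypn and Cald1) and in 13.6%, and the MEF2 box in 0 genes and in 0.557%. Motifs were searched on both strands, and E-box matches may overlap the others, as in Mypn. The TATAAA match of Cald1 lies in the window not shown. A gene was counted if any of its windows matched, while the percentages are per window. A match describes the letters and no binding. Without a value per start site, the counts do not show which start was used.

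**Figure D4:**
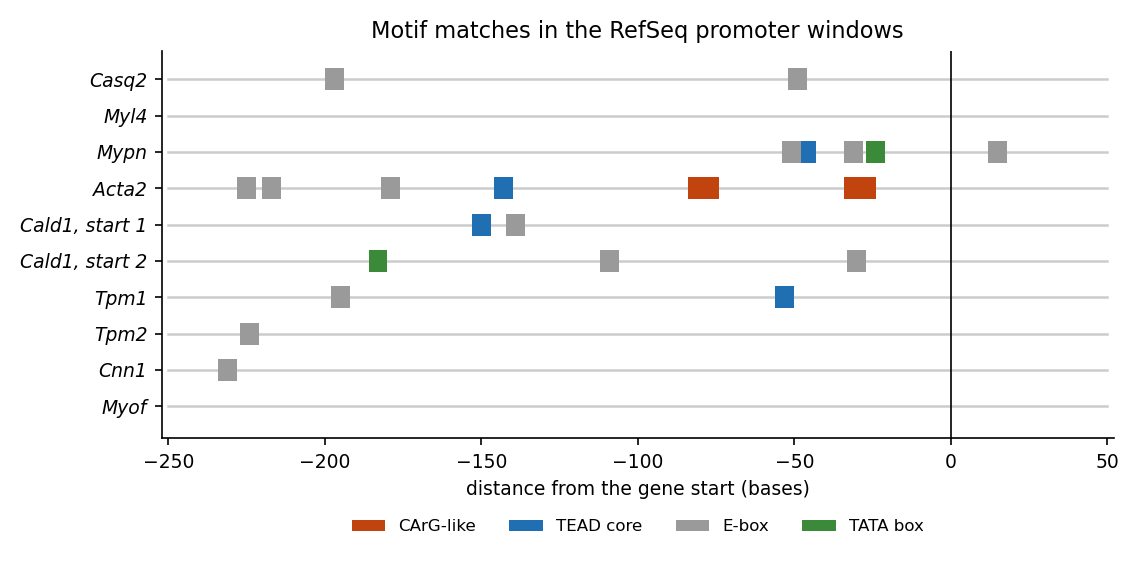
Matches in the RefSeq promoter windows, by distance from the gene start in bases (start at 0), with 1 line per window and 1 colour per motif. Acta2 carries 2 CArG-like matches, TEAD core matches lie in Mypn, Acta2, Cald1 and Tpm1, and Myl4 and Myof hold no match to the motifs drawn.

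The wider lists of contractile genes were described the same way. Their counts stand beside 14.3% higher and 8.02% lower of all genes tested in the Dgcr8 knockout against WT (median 0.11), and 16.0% and 9.70% in the Dicer knockout (median 0.10). Of the 14 genes of the smooth muscle list, 6 of them among the 10 described above, 12 had a row. In the Dgcr8 knockout 4 of 11 tested were higher and 2 lower, and in the Dicer knockout 5 of 12 were higher and 2 lower. The 10 genes, chosen by these same counts, supplied most of these calls. They were Tagln, Cald1, Tpm1 and Cnn1 in both knockouts and Acta2 in the Dicer knockout. The only other calls were Myl9, higher, and Des, lower, in both knockouts. Besides the genes above, Myl9, the regulatory light chain of smooth muscle, had 10, 48 and 54 counts in WT, the Dgcr8 knockout and the Dicer knockout. Des, which encodes the muscle intermediate filament desmin, had 506, 69 and 20 counts and was 8.21-fold (6.38 to 10.7) and 31.4-fold (20.1 to 51.8) lower than in WT. Smtn (smoothelin) was at 25.8, 42.1 and 24.8 CPM.

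In the list of 10 tropomyosin, calponin and transgelin genes, 3 were higher and 1 lower in Dgcr8 knockout cells, and 4 were higher and 1 lower in Dicer knockout cells. Tpm1, Tpm2, Cnn1 and Tagln of this list are among the genes described above. In both knockouts they supplied the higher calls of Tpm1 and Tagln and the lower call of Cnn1. The other higher calls were Cnn2 in both knockouts and Tagln3 in the Dicer knockout. Of 21 non-muscle actomyosin genes, all tested, 6 were higher and 1 lower in Dgcr8 knockout cells, and 5 were higher and 1 lower in Dicer knockout cells. Their median log2 ratios were 0.64 and 0.54. Actb, Actg1, Vcl, Zyx and Myl9 of this list are also in the SRF list below, and Myl9 is in the smooth muscle list. The calls of these lists therefore overlap and are not separate counts. The kinase gene Rock2 was at 35.6, 78.2 and 92.2 CPM. Flnc, the muscle filamin, was the member lower in each, at 26.7, 7.55 and 6.34 CPM. The list of SRF, its MRTF coactivators and reported targets had 16 of 18 genes tested, with 6 higher and 0 lower in Dgcr8 knockout cells and 9 higher and 0 lower in Dicer knockout cells, and medians of 0.87 and 1.10 beside 0.11 and 0.10 over all genes. Of all genes tested, 14.3% and 16.0% were higher and 8.02% and 9.70% lower. Fhl2 of this list had 10, 2 and 2 counts, below WT but not called on the log2(CPM + 1) scale. Several genes of the smooth muscle list were not put in this one. Tagln, Cald1 and Tpm1 of these were higher in each knockout, and Cnn1, Tpm2 and Des were lower. The list counts therefore depend on which genes were listed. Egr1, an immediate early gene, had 18, 162 and 179 counts. The coactivator gene Mkl2 was at 13.0, 34.3 and 35.2 CPM, and Srf itself at 29.5, 40.1 and 42.9 CPM, below 2-fold. Myocd, the smooth and cardiac muscle coactivator, was not analysed here.

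Of 20 myogenic and cardiac transcription factors, 11 had a row and 8 were tested in each comparison with WT. In the Dgcr8 knockout 4 were higher and 1 lower, and in the Dicer knockout 6 were higher and 2 lower. Gata4 had 15, 86 and 75 counts and Mef2a 13, 62 and 66. Mef2b went the other way, with 124, 17 and 16 counts. The skeletal master regulators Myod1, Myf5, Myf6 and Myog were not analysed here. Over all 8 lists, which hold 140 different genes including the 10, 24 of 93 tested were higher and 9 lower in Dgcr8 knockout cells, and 31 of 95 were higher and 14 lower in Dicer knockout cells. Of all genes tested, 14.3% were higher and 8.02% lower in the former and 16.0% and 9.70% in the latter. Without the 10 genes the list counts were 18 and 7 of 83, and 26 and 10 of 85.

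**Figure D5:**
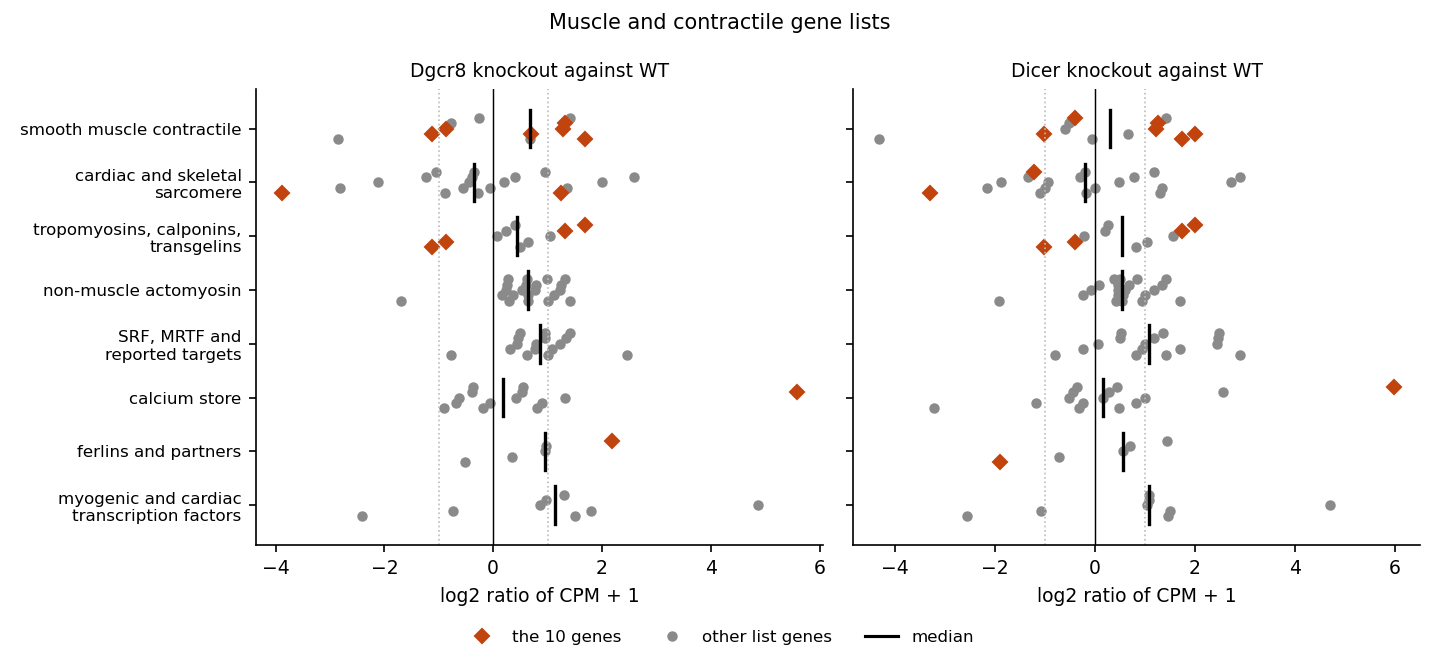
Log2 ratio of CPM + 1 to WT for every tested gene of the 8 lists, in the Dgcr8 knockout (left) and the Dicer knockout (right); red diamonds are the 10 genes, grey points the other list genes, black bars list medians and dotted lines 2-fold. The sarcomere medians lie below 0 (-0.34 and -0.19) and those of SRF, MRTF and reported targets at 0.87 and 1.10.

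Stromal markers differed between the libraries too. Of 12 fibroblast and feeder markers, 6 had a row, and their summed level was 495 CPM in WT, 691 CPM in Dgcr8 knockout cells and 622 CPM in Dicer knockout cells, most of it Fn1 (450, 677 and 614 CPM). Of the other 5, 4 had the most counts in WT. Col1a1 had 97, 6 and 5 counts, Thy1 175, 23 and 16, and Pdgfra 33, 4 and 3. Pdgfrb had 126, 94 and 10 counts. Twist1 went the other way, with 16, 25 and 72 counts, 3.63-fold above WT in the Dicer knockout (2.09 to 6.69). Of the 10 genes, Myl4, Tpm2 and Cnn1 were also highest in WT. So were several list genes, among them Des, Tnnt1, Myh3, Tnni3, Flnc and Mef2b. The part of stromal or muscle-like cells in the counts of these genes was not tested. Col1a2, Col3a1, Postn, Dcn, Lum and Prrx1 were not analysed here.

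The small RNA library of WT cells also holds miRNAs known from muscle tissue. Which cells their reads came from was not tested. Mature sequences of miR-206, miR-208 and miR-499 arms are shown to allow their seeds to be compared, with the seed (bases 2 to 8) in capitals. MiR-21a-5p, whose reported targets include Tpm1, is shown with them. Sequences of miR-1, miR-143, miR-145 and miR-486 are not shown here.
mmu-miR-206-3p: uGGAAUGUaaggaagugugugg
mmu-miR-208a-3p: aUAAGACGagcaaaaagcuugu
mmu-miR-208b-3p: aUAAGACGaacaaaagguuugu
mmu-miR-499-5p: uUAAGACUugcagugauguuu
mmu-miR-499-3p: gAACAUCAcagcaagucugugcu
mmu-miR-21a-5p: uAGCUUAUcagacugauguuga
MiR-208a-3p and miR-208b-3p, both from introns of cardiac myosin heavy chain genes, share 1 seed. The skeletal miR-206-3p had 8 of 2594949 reads, or 3.08 RPM (reads scaled like CPM, over all miRNA reads, 95% Clopper-Pearson interval 1.33 to 6.07). MiR-208a-3p had 1 read, miR-208b-3p 4 and miR-499-5p 34 (13.1 RPM, 9.07 to 18.3), with 7 reads for miR-499-3p. MiR-1a-3p had 28 reads and no arm of miR-133 was analysed here. Over the 13 arms listed of miR-1, miR-143, miR-145, miR-206, miR-208, miR-499 and miR-486, there were 1671 reads, 644 RPM (613 to 676). Of these, 1488 were miR-143-3p, which is known from smooth muscle and ranked 69 of the 707 miRNAs. MiR-145a-5p, made from the same primary transcript as miR-143, had 52 reads. MiR-21a-5p had 12199 reads (4701 RPM, 4618 to 4785) and ranked 19. The knockouts have no small RNA library here, and target sites were not searched, so these levels are not tied to the mRNA ratios.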

How the data were processed

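Mouse embryonic stem cell mRNA was made into stranded poly(A)+ libraries, per the labels' protocols. Bowtie (no version) and the build mm9 are named in the submitters' processing notes; the counter, annotation and use of strand are not stated there. The deposited values are whole-number counts per RefSeq transcript entry and, for small RNA, counts per mature miRNA. Empty cells were read as 0, and no row is below 10 counts in all libraries. Counts from 2 to 9 were even for 69.6% to 74.8% of genes, as when both mates are counted. The intervals of ratios were therefore also computed with counts halved, and those of shares were not. Of 30 ratios, 24 intervals excluded 1, and 23 with halved counts. Counts were scaled to CPM. Ratios have exact conditional binomial 95% intervals and shares exact Clopper-Pearson 95% intervals, which cover counting error only. Scripts used Python 3.11.15, pandas 2.3.3, scipy 1.17.1 and, for TMM factors, edgeR 4.0.16 in R 4.3.3, and were tested on simulated data. The 10 genes and all lists were chosen with earlier results of these data known; paralog families were chosen after their values were seen. Genes named are the 10, their closest paralogs, up to 4 genes of each list with the largest ratios at 5 CPM or more and others that show both directions, markers at 1 CPM or more, Dgcr8, Dicer1 and, for chosen genes, the 3 nearest genes, of which 1 is not reported here; Calr, Rock2, Srf and Myl6 were added after their values were seen.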

Additional observations from a re-analysis of the deposited data

Results flagged for a closer look

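Each knockout was compared with the same WT library, and 2 of the genes lay at least 2-fold from it on opposite sides. For Myof the log2 ratio to WT was 2.18 without Dgcr8 and -1.89 without Dicer, a difference of 4.08. For Mypn the values were 1.26 and -1.22, a difference of 2.48. With 1 library of each, these differences were not tested.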

How the results depend on the processing

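Of 120 recomputed ratios of the 10 genes, 111 shifted by less than the width of the counting interval on that side (unbounded upward for Casq2 against WT) and 9 by more, all 9 with a pseudocount of 5 CPM. Values inside wide intervals still shifted: with 0.1 CPM, Casq2 in the Dgcr8 knockout against WT went from 5.58 to 8.88 and Myl4 from -3.88 to -5.38 on the log2 scale. With 5 CPM the calls against WT of Acta2 in the Dicer knockout and of Cnn1 and Mypn in both knockouts were lost, and with 0.1 CPM Acta2 in the Dgcr8 knockout and Myl4 between the knockouts were called. None was reversed among called values, and the ratio of Cald1 between the knockouts changed sign with median-ratio scaling. Median-ratio and TMM scaling shifted the median of all genes by -0.13 and -0.11 in the Dgcr8 knockout against WT and by -0.11 and -0.10 in the Dicer knockout, and changed no count of called genes among the 10. The shares of all genes called were recomputed for these scalings only. The counts that follow, under other rules, have no such share beside them, so nothing is read from them. In the Dgcr8 knockout against WT, the 4-fold rule left 2 of the 10 higher and 1 lower, and a pseudocount or floor of 5 CPM left 1 lower. In the Dicer knockout, the 4-fold rule left 2 higher and 1 lower, and a pseudocount or floor of 5 CPM left 2 lower. Between the knockouts, 1 was lower with a pseudocount of 0.1 CPM and 2 by a 1.5-fold rule. Over all lists in the Dgcr8 knockout, a pseudocount of 5 CPM gave 15 higher, the 1.5-fold rule 44 higher and 17 lower, the 4-fold rule 5 higher and 5 lower, and a pseudocount of 0.1 CPM 15 lower. In the Dicer knockout, a pseudocount of 5 CPM gave 20 higher and 8 lower, and the 4-fold rule 10 higher and 5 lower. Between the knockouts, the 1.5-fold rule gave 11 higher and 12 lower, the 4-fold rule 3 higher and 1 lower, and a pseudocount of 5 CPM 4 lower. Without the most abundant miRNA, the muscle miRNAs summed to 1046 RPM. The cause was not tested, beyond the rules' own construction. Halved counts were added as an alternative after seeing the data. No paired analysis was possible because each group has 1 library. Low counts, such as 4 for Myl4 in the Dgcr8 knockout, 4 for Acta2 in WT, and 10 for Cnn1 in the Dgcr8 and Mypn in the Dicer knockout, limit what the depth can show.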

Other observations

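Some list genes differed between the knockouts in a comparison that does not use the WT library. The Dgcr8 knockout was below the Dicer knockout for Fhl1, a LIM-domain protein of muscle, by 3.63-fold (3.23 to 4.09), and for the matricellular genes Ctgf by 2.98-fold (2.60 to 3.44) and Cyr61 by 2.98-fold (2.47 to 3.62). Itpr2, a calcium release channel, had 2 counts in Dgcr8 knockout cells and 105 in Dicer knockout cells. The Dgcr8 knockout was above the Dicer knockout for Des by 3.82-fold (2.29 to 6.63), for Atp2a3 by 6.84-fold (5.31 to 8.92), for Palld by 3.14-fold (2.53 to 3.91) and for Myl7, the atrial regulatory light chain, by 3.48-fold (2.36 to 5.24). Intervals are 95% counting intervals, and with 1 library each these differences were not tested.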
